A study of Drosophila melanogaster with 2 samples.

Results

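The genes described are u-shaped (ush), which encodes a GATA cofactor, its neighbour cabut (cbt), the GATA factor genes pannier (pnr) and serpent (srp), and Chip (Chi). They are 5 of 13945 protein-coding genes on the main chromosome arms. ush and cbt were chosen by the pooled peak signal of a region in a ush intron upstream of the cbt start, so their signals are given as a description and without a test. pnr, srp and Chi were chosen for their known ties to Ush and Daughterless. A region was assigned to a gene when its summit lay in the gene span or within 5000 bp of it.

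Chromatin immunoprecipitation and sequencing was done on whole Drosophila melanogaster embryos of mixed sex, aged 0 to 24 h. All came from the transgenic line da-GFP, which carries the bHLH protein gene daughterless (da) with green fluorescent protein at its C-terminus, and an antibody against GFP was used. The sources used here do not give the promoter that drives the transgene or its insertion site. There was 1 group of 2 biological replicates, numbered 2 and 3, so replicates could be set beside each other and no test between conditions was possible. In such embryos, strong binding in few cells and weak binding in many cannot be told apart.

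Ush is a multi-zinc-finger protein of the Friend of GATA family that binds GATA factors and changes their activity. Pnr is a GATA factor of the dorsal ectoderm, the notum and the heart, and Srp is a GATA factor of blood cells, fat body and endoderm. In the notum, Pnr acts with Chip, an adaptor protein that also binds Daughterless and its proneural partners, while Ush antagonises Pnr there. Cabut is a zinc finger factor related to the vertebrate TGF-beta-inducible early genes, with a role in dorsal closure. Daughterless binds E-boxes, sites of the form CANNTG, and GATA factors bind sites with the core GATAA.

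The thresholded list of the authors held 1941 regions in dm6, which were the 1941 of highest signal among 30000 regions called on the pooled reads of both replicates. The pooled relaxed list reached from a peak signal of 18.1 to 877, and the lowest thresholded signal was 64.2. Signal is the value the authors' peak caller gave each region, in a unit the sources used here do not give, and it describes and ranks regions within a list. Depth is unknown, because the lists hold no read counts. A −log10 q of 2 or more was given to 3604 pooled regions, 3568 regions of replicate 2 and 2964 of replicate 3.

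The sequences printed here are those on which the description turns, 50 bp to either side of a summit, read 5′ to 3′ on the plus strand of the RefSeq Release 6 assembly (dm6), with E-boxes and GATAA (or its complement TTATC) in capitals. The first is a longer stretch of 251 bp around the highest summit at ush, chr2L:480945-481195. The second is the summit next to it, upstream of cbt, chr2L:480041-480141. The third and the fourth lie in introns further along ush, chr2L:485822-485922 and chr2L:510644-510744, and the fifth is the highest candidate upstream of pnr, chr3R:16025923-16026023. The sixth is the only CAGCTG within 50 bp of a thresholded summit at these genes, chr2L:479129-479158, shown with 12 bases on either side.
ush highest summit: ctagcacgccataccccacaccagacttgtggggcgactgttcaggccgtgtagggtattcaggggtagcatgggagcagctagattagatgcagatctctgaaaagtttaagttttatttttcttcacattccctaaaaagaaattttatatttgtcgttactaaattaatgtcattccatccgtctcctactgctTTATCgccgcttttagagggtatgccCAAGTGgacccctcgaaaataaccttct
cbt upstream summit: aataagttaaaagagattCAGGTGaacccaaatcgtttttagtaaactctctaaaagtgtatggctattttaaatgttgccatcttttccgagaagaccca
ush intron summit 485872: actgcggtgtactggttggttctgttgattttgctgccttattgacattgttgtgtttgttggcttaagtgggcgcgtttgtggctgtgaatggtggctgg
ush intron summit 510694: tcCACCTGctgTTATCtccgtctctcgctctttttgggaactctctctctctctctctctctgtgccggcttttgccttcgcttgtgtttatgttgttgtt
pnr upstream candidate: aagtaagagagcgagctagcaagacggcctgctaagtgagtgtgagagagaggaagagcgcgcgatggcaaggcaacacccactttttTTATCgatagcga
cbt CAGCTG: aagtccaatgttCAGCTGcggcctctcgct

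ush held more thresholded regions than any other protein-coding gene, while pnr, srp and Chi held none. There were 9 thresholded regions at ush, and no other of the 13945 genes had as many (5 genes had 8). The 9 include the region by which ush was chosen, so its lead over the genes with 8 rests on that region. Of these 9, 4 were also within 5000 bp of cbt, which lies inside the ush span on the opposite strand, so the ush and cbt counts share regions. In all, 2 of the 5 genes had a thresholded region, and 28.4% of all protein-coding genes did (3958). In the 1941 highest regions of a single replicate the same 2 genes had one, where 28.1% of all genes did in replicate 2 and 28.0% in replicate 3. The region by which these 2 genes were chosen was rank 1 in replicate 2 and rank 2 in replicate 3. They could therefore not drop out there. In the pooled list a candidate with a −log10 q of 2 or more was found at ush, cbt and Chi, 3 of the 5 genes, and at 42.3% of all genes. All 5 had some region in the pooled relaxed list, as did 88.9% of all genes. ush spans 64341 bp, and a long gene has more room for regions. Since no other gene had 9, ush was bound to be alone at 9 or more among the 198 genes with a window at least as wide. That comparison therefore adds nothing on gene length. Per 10 kb of window, ush had 1.21 thresholded regions (rank 664 of 13945) and cbt 3.02 (rank 19).

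**Figure D1:**
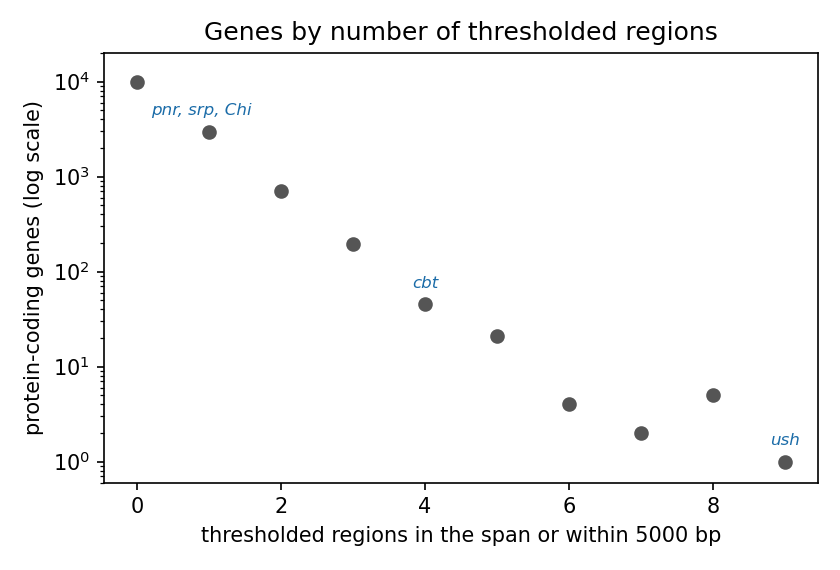
Number of protein-coding genes (log axis) against the number of thresholded regions in the gene span or within 5000 bp of it. ush stands alone at 9 regions, cbt is among 45 genes with 4, and pnr, srp and Chi are among 9987 genes with 0.

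The strongest signals stood at the 5′ end of ush, around the start of cbt. The gene ush (FBgn0003963) runs from 2L 476220 to 540560 on the plus strand, with annotated start sites at 476220, 490835, 523466 and 523736. The gene cbt (FBgn0043364) runs from 476446 to 479688 on the minus strand, with its start site at 479688. The highest of the 9 regions, 2L 480911 to 481246, had its summit at 481070, in an intron of ush 4850 bp past its first start site and 1382 bp upstream of cbt. It reached 392.4 in replicate 2 and 444 in replicate 3 (mean signal 418 ± 36.7, SD, n = 2), rank 1 and rank 2 in those lists, and 834 in the pool. The second of the 9, with its summit at 480091, lay 403 bp upstream of the cbt start site. Its signal was 93.4 in replicate 2, 136.5 in replicate 3 and 230.3 in the pool (rank 90).

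Another region of the cluster lay within cbt itself, with its summit at 479157 in the 5′ untranslated region of cbt, 531 bp past the start site. There the signal was 39.2 in replicate 2, 52.3 in replicate 3 and 93.0 in the pool (rank 851). The summits of these regions at cbt were 934 and 979 bp apart. The fourth region near cbt, with its summit at 472436, lay 3784 bp upstream of ush and 236 bp upstream of the start site of CG4297, which was the nearest. It had a signal of 61.5 in replicate 2, 66.4 in replicate 3 and 126.3 in the pool. The 2 strongest regions were narrower than the common width of 396 bp (1778 of 1941 regions), at 336 and 126 bp.

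**Figure D2:**
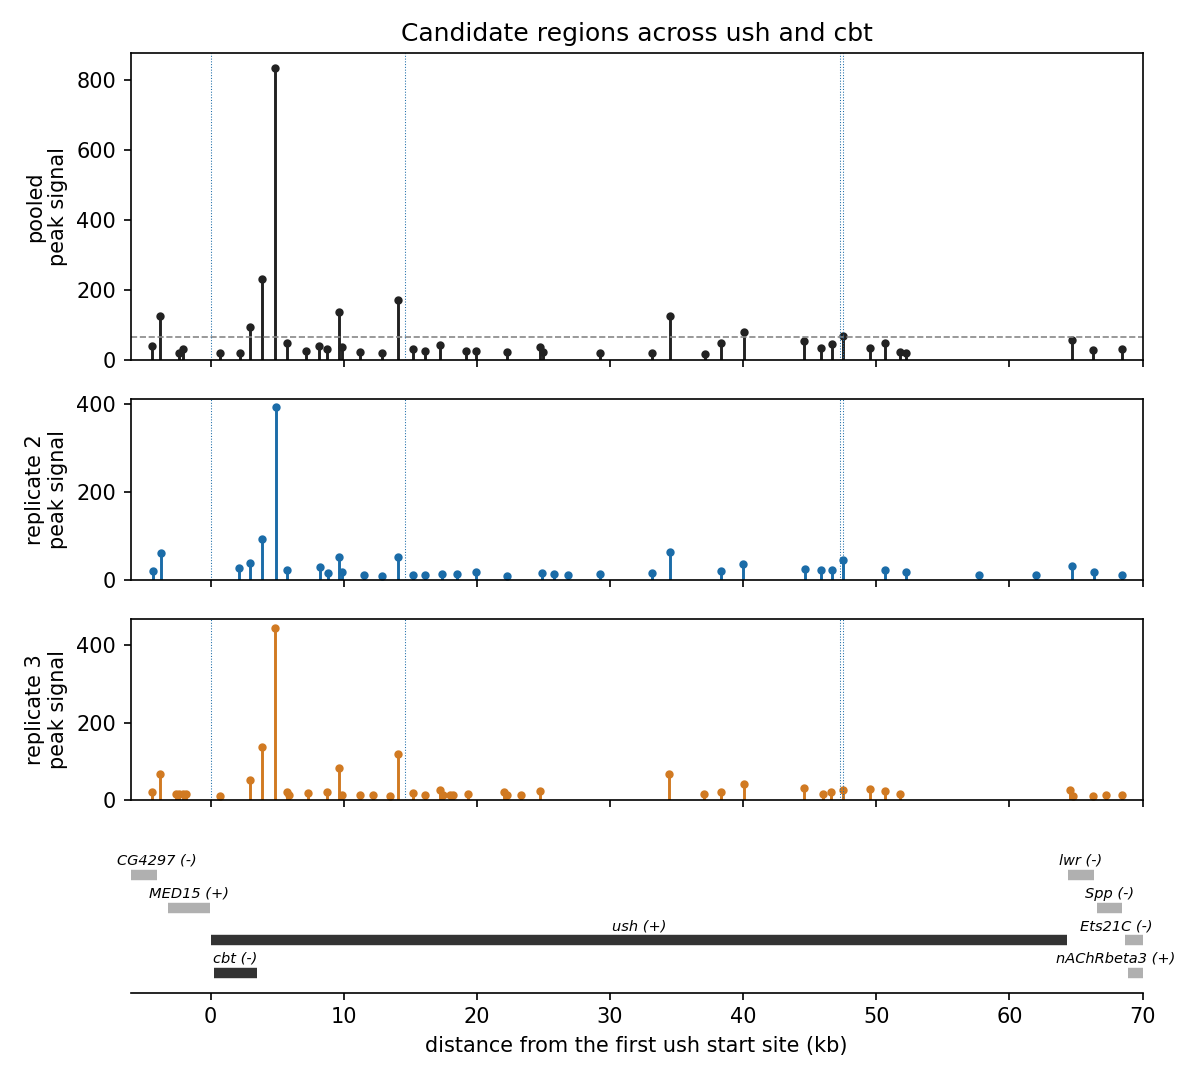
Peak signal (linear axis) of all candidate regions within 5000 bp of ush against distance from its first start site in kb, for the pooled list and each replicate, with protein-coding genes below and their strand in brackets. Dotted lines mark the ush start sites and the dashed line the lowest thresholded signal of 64.2. The highest bar in each list, 834 in the pool, stands 4.85 kb from the first start site, and 8 of the 9 regions above the line lie inside ush.

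The other 5 thresholded regions were spread along ush, and 2 of them lay close to its later start sites. The region with its summit at 490272 was in an exon of the 5′ untranslated region, 563 bp upstream of the start site at 490835. Replicate 2 showed a signal of 52.7 there against 118 in replicate 3, a log2 ratio of 1.16, and 171.8 in the pool (rank 196). The region with its summit at 523733 was 3 bp upstream of the start site at 523736. Here replicate 2 was the higher, with a signal of 45.0 (rank 883) against 27.3 (rank 3589) in replicate 3, and the pool had 68.4 (rank 1681), the lowest of the 9. These were the regions where the replicates differed most, in opposite directions.

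The remaining 3 were intronic and further from a start site. The region at 485872, 4963 bp upstream of the start site at 490835, had a signal of 53.3 in replicate 2 and 82.2 in replicate 3, and 136.3 in the pool. The region at 510694, 12772 bp upstream of the start site at 523466, had 63.2 and 68.0 in the replicates, and 126.3 in the pool. The region at 516259, 7207 bp upstream of the same start site, had 35.9 and 43.1, and 79.7 in the pool. In each of the 3 the signal was higher in replicate 3, as it was in 8 of the 9 regions.

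Weaker candidates lay along much of ush, but none lay in the pooled list between the summits at 528440 and 540937, which takes in the 3′ end of the gene. The pooled relaxed list held 43 regions at ush, against a median of 4 over all protein-coding genes and a highest of 91 (rank 23 of 13945). Per 10 kb of window this was 5.78 (rank 1958), and 24 of the 198 genes with a window at least as wide, ush included, had 43 or more. Of these, 13 had a −log10 q of 2 or more, the 9 thresholded ones and 4 others. The 4 had pooled signals of 49.2 (summit 514562), 53.1 (520799), 48.0 (526892) and 56.0 (540937), and the last lay 377 bp beyond the end of ush, in the 3′ untranslated region of lwr. Of the 43 regions, 26 (60.5%) were found within 200 bp in both replicates, as were 41.8% of all 30000. The 26 include the 9 thresholded regions, and 99.3% of all thresholded regions were found in both, so the shares are not of regions alike in signal. The region just inside the 5000 bp limit of ush had a pooled signal of 40.9 and lay 4406 bp before the gene, and the one just outside had 105.3, in an intron of CG4297 5413 bp before it. At cbt these values were 38.4 at 4656 bp and 30.0 at 5297 bp, both in ush introns. The other 3 genes had weak regions on both sides of the limit: pnr 35.1 at 106 bp and 19.5 at 6458 bp, srp 22.9 at 3211 bp and 18.2 at 5502 bp, and Chi 18.2 at 3981 bp and 20.5 at 6655 bp.

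The 9 regions were found in both replicates, as were 99.3% of all thresholded regions, whose list the authors filtered for reproducibility. All 9 were among the 1941 highest of replicate 2, and 8 were among the 1941 highest of both replicates, the exception being the region at 523733. Among all thresholded regions, 61.3% were among the 1941 highest of both, but the 9 were not set beside regions of like signal. The log2 ratio of replicate 3 to replicate 2 over the 9 ran from -0.72 to 1.16, with a median of 0.26 and an SD of 0.51. Over the 1928 thresholded regions found in both replicates the median was 0.18 and the SD 0.59, so 7 of the 9 lay within 1 SD of that median and the regions at 490272 and 523733 did not. The summits of a region in the 3 lists lay at most 63 bp apart.

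**Figure D3:**
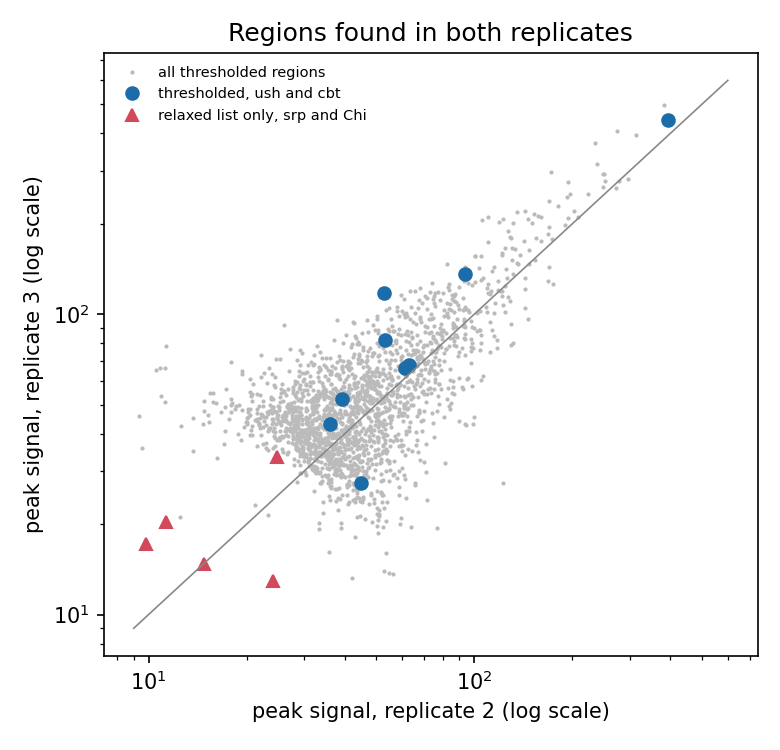
Peak signal in replicate 3 against replicate 2 (both axes log) for regions found within 200 bp in both, with the line of equal signal. The 9 thresholded regions at ush and cbt (circles) lie within the cloud of all thresholded regions (dots) or at its upper end, and the 5 matched regions at srp and Chi (triangles) lie toward its lower left or outside it.

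The GATA factor genes srp and pnr lay in a stretch without a thresholded region. They flank a further GATA factor gene, GATAe, on 3R, and the 55645 bp from the start of srp (15986152) to the end of pnr (16041796) held 20 pooled regions, none thresholded and none with a −log10 q of 2 or more. Of all 13945 protein-coding genes, 9987 had no thresholded region within 5000 bp. The windows differ in width, with 27934 bp at srp, 25718 bp at pnr and a median of 12166 bp over all genes. No share was taken over genes with windows as wide, so the lack of a region is not shown to be unusual. Per 10 kb of window the pooled list held 4.30 regions at srp and 2.33 at pnr, against a median of 2.97 over all genes. The 36 pooled regions within the ush span of 64341 bp included 8 thresholded ones, but ush was chosen by its signal. The nearest thresholded region to srp was 11715 bp before it, in an intron of Hel89B (pooled signal 108.2). For pnr the same region was the nearest, 51642 bp before the gene.

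The best candidate of pnr (FBgn0003117, 3R 16026079 to 16041796, plus strand) lay at its promoter. Its summit at 16025973 was 106 bp upstream of the first start site, with a pooled signal of 35.1 (rank 7099). It was found within 200 bp in replicate 3 (24.2, rank 4868) and not in replicate 2. Replicate 2 had its own summit 276 bp away at 16026249 (20.7, rank 5221), 3 bp upstream of the start site at 16026252, and the pool listed that one too, at 23.7. Each replicate thus had a weak candidate at the pnr promoter. The summits were 248 bp apart, but the regions overlapped, at 16026051 to 16026446 in replicate 2 and 16025809 to 16026192 in replicate 3. None of the 6 pooled regions at pnr was found within 200 bp in both replicates.

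At srp (FBgn0003507, 3R 15986152 to 16004085, plus strand) the best candidate lay past the end of the gene. Its summit at 16004220 was 135 bp beyond the span, with a pooled signal of 40.6 (rank 5111) and a −log10 q of 1.29. It had a signal of 28.1 in replicate 2 (rank 2611), where its −log10 q was 2.68, and no summit within 200 bp in replicate 3. The region overlaps an annotated transposable element and a noncoding RNA gene. Of the 12 pooled regions at srp, 3 were found in both replicates, and those had pooled signals of 34.4, 26.8 and 22.9. The candidate next to a start site of srp, with its summit 77 bp past 15994140, had a signal of 25.0 in replicate 3 (rank 4469) and was not found in replicate 2. The best candidates of srp and pnr were each found within 200 bp in only 1 replicate, which does not show that the other added no signal.

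**Figure D4:**
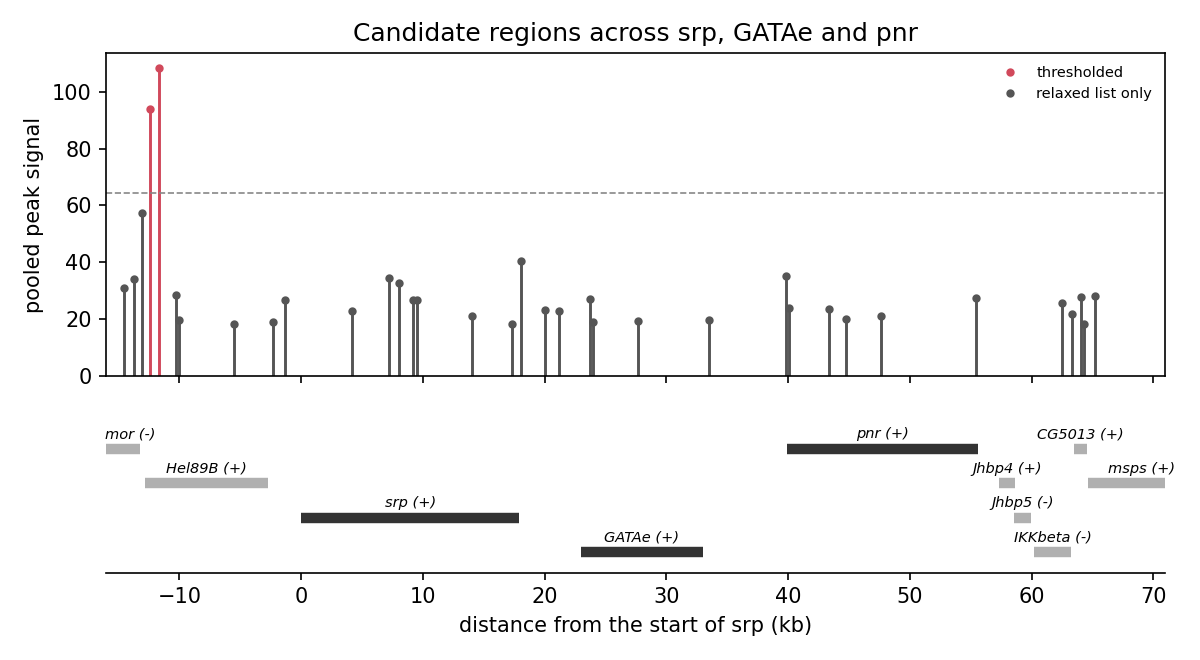
Pooled peak signal (linear axis) of candidate regions from 15 kb before srp to 15 kb past pnr, against distance from the start of srp in kb, with protein-coding genes below. The dashed line is the lowest thresholded signal of 64.2. Every region from srp to pnr is at 40.6 or less, and the 2 regions above the line lie in Hel89B.

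Chi had the strongest signal of the genes without a thresholded region, but not at its own start. The best candidate near Chi (FBgn0013764, 2R 24031538 to 24033943, minus strand) had its summit at 24028809, 2729 bp beyond the end of Chi and 20 bp upstream of the start site of HSPC300. Its signal was 24.8 in replicate 2 (rank 3446), 33.5 in replicate 3 (rank 2200) and 58.9 in the pool (rank 2315), under the lowest thresholded signal of 64.2. At the promoter of Chi itself, the summit at 24033912 lay 31 bp past a start site, in the 5′ untranslated region. That region had a signal of 24.2 in replicate 2, 13.0 in replicate 3 and 35.9 in the pool. Both regions were seen in both replicates, as 2 of the 6 pooled regions at Chi. In replicate 3, however, the promoter region had only rank 22883 and a −log10 q of 0.15, and the lowest signal of that list was 11.3. The highest pooled signals of the genes therefore ran from 834 at ush and cbt over 58.9 at Chi and 40.6 at srp to 35.1 at pnr. The last 2 are not ordered by replicates, as each was found in a different one.

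Most of the 9 thresholded summits had neither an E-box nor GATAA within 50 bp, and 9 regions are too few to set them apart from the whole list. CANNTG was within 50 bp of 3 of the 9 thresholded summits, of 42.6% of all 1941 and of 45.3% of the 30000 pooled summits. None was within 50 bp of the highest summit, where the GC content was 26.7%, and 10.8% of all thresholded summits had as low a value or lower. In the longer stretch printed for that summit, the E-box CAAGTG begins 98 bp past the summit and TTATC 72 bp past it. The summit upstream of cbt had CAGGTG beginning 32 bp before it. The summit in the cbt untranslated region had the CAGCTG printed above, beginning 16 bp before it, and CACGTG beginning 37 bp past it.

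CAGCTG, at 10.5% of all thresholded summits, was thus at 1 of the 9. CACCTG, which reads CAGGTG on the other strand, was at 2 of the 9 and at 5.31% of all. CAGATG was at 0 of the 9 and at 6.18% of all. GATAA was within 50 bp of 1 of the 9 summits and of 20.7% of all 1941. That summit, at 510694, had both, with CACCTG beginning 48 bp and TTATC 39 bp before it; both were present at 8.35% of all thresholded summits. Over the whole deposited regions, CANNTG was present in 9 of 9 (87.1% of all), CAGCTG in 3 of 9 (27.2%) and GATAA in 5 of 9 (55.7%). The pnr candidate had TTATC beginning 38 bp past its summit, in the letters TATCGATA, the core of the element bound by the factor DREF, overlapping TTATC. TATCGATA, searched after this sequence had been seen, was in 2.52% of the thresholded windows and in 0.993% of the 30000 pooled ones.

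Related genes were counted in gene lists chosen with earlier results of these data known. A count of 0 among 5 GATA factor genes does not set them apart from all genes. Of 5 GATA factor genes, 0 had a thresholded region within 5000 bp, where 28.4% of all genes did, and the highest pooled signal was 61.9, at grn (25.1 and 42.8 in the replicates), 226 bp upstream of its start site. The median of the highest signal per gene was 40.6 over the 5 and 46.0 over the 12394 genes with any candidate. The value of 40.6 is that of the region past the end of srp, which srp and GATAe share and which was found in replicate 2 and not in replicate 3. All 4 genes for corepressors and chromatin partners had one: gro (200.1), Sin3A (141), CtBP (79.8) and HDAC1 (76.5), the last in an intron of Src64B. The HDAC1 region rested mostly on replicate 3, with a signal of 66.2 against 10.9 in replicate 2, where the 1941 highest regions began at 32.0. Of 7 genes listed for the LIM domain complex with Chi, Chi itself among them, 2 had one: tup (129.7, and 71.8 and 24.1 in the replicates, its summit in an intron of CG10602), which encodes a LIM homeodomain factor, and Ssdp (88.6), whose protein binds Chip.

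Of 11 amnioserosa and dorsal closure genes, 6 had one, led after cbt by Ance (186.1, at the start of Smg5), Jra, which encodes the fly Jun (133.7, nearest to 14-3-3zeta), and puc, the phosphatase that restrains JNK signalling (109.9, in its intron). Of 10 hemocyte genes, 3 had one, ush, Hml (153.5, in an intron of CG8745) and zfh1 (141.9, in its own intron). Of 4 genes of the u-shaped group, named for their role in germ band retraction, 2 had one, ush and tup, while peb, at 61.5, was just under the limit. Of 7 Krüppel-like and Sp factor genes, 2 had one, cbt and luna (73.1). Of 9 heart and dorsal mesoderm genes, 3 had one, ush and the neighbours Doc2 and Doc3, which share a region (82.0). Over all protein-coding genes the share was 28.4%. It was 30% for the hemocyte, 28.6% for the Krüppel-like and Sp and 33.3% for the heart and dorsal mesoderm genes. For the u-shaped group it was 50%, and for the amnioserosa and dorsal closure genes 54.5%. Each of these lists counts ush or cbt, which were chosen by their own region and so had one in any case. The lists overlap, differ in gene length and were not tested.

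**Figure D5:**
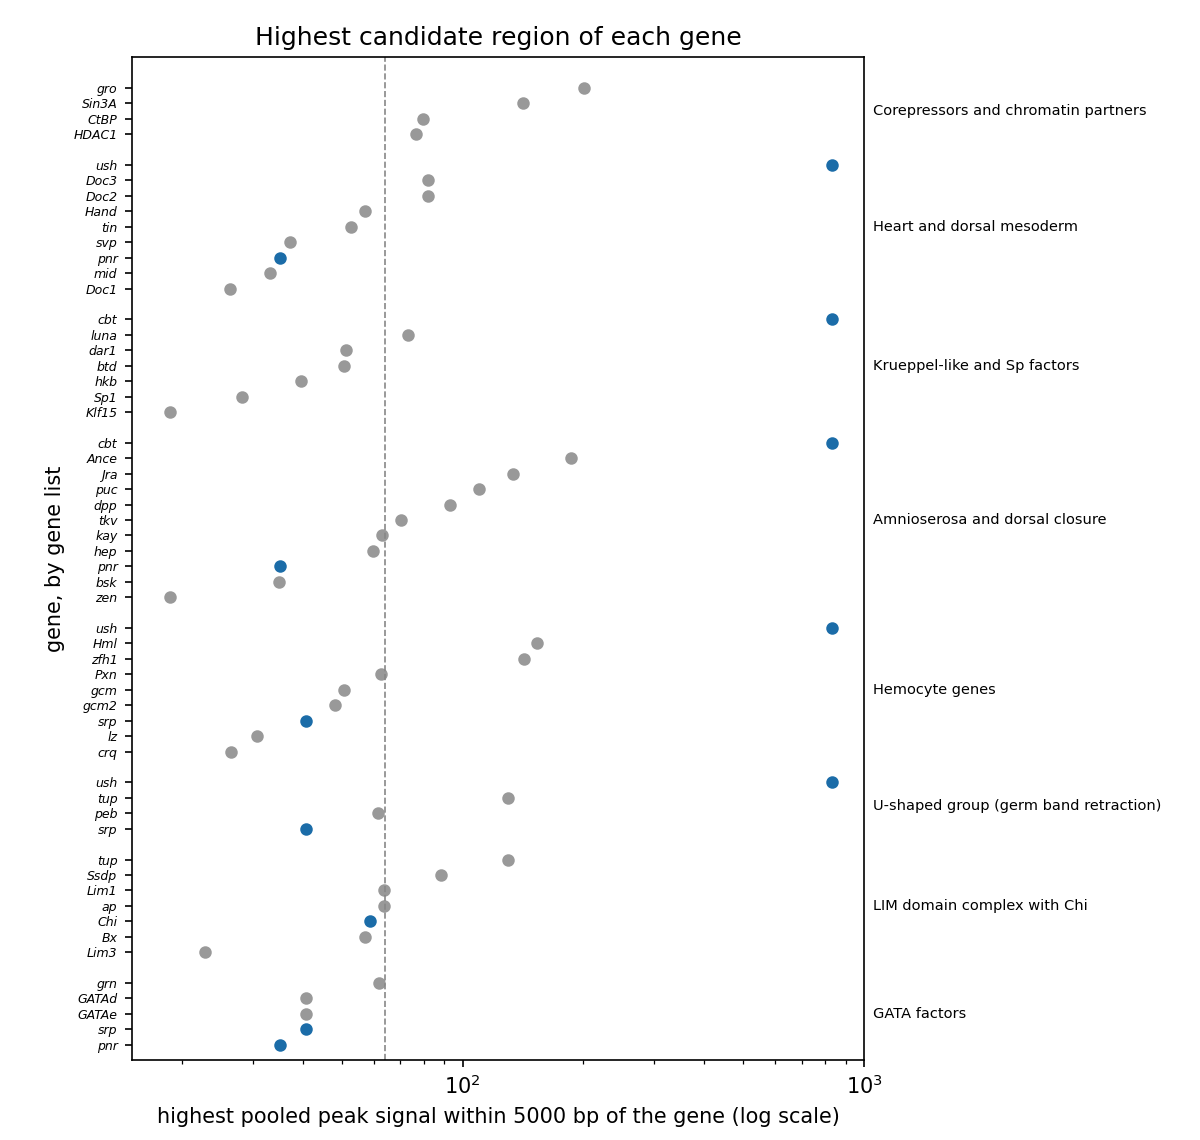
Highest pooled peak signal (log axis) within 5000 bp of each gene in 8 gene lists, with ush, cbt, pnr, srp and Chi as dark blue points and other genes in grey. The dashed line is the lowest thresholded signal of 64.2. The 5 GATA factor genes all lie left of it, at 61.9 or less, and the 4 corepressor and chromatin partner genes right of it.

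The genes most like ush in highest signal, number of candidates and replicate ratio were px (681; 38 candidates), CenG1A (448; 27) and Tlk (349.7; 38), where ush had 834 and 43. Likeness was the Euclidean distance over these 3 standardised values among the 9466 genes that have them, each taken over both replicates, and came to 0.77, 1.37 and 1.53 SD. For cbt they were CG2681 (707), and CG9231 and CG9330 (877), which share the region of highest signal in the series. For Chi they were CG14556 (58.2), Exo84 (58.0) and CG31957 (60.6), all within 0.05 SD. For pnr and srp the measure has no value, since their best candidate was not found in both replicates.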

How the data were processed

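The authors deposited region lists in dm6 and dm3 for each of the 2 replicates, for their pooled reads and after a filter on irreproducible discovery rate; the sources used here do not give the caller, the aligner or their versions. Per the notes deposited with the lists, each relaxed list derives from the alignments and a further file that also lies behind the control-normalised tracks; neither was analysed here. Each region has a deposited signal, whose scaling is not given in the sources used here, and a −log10 q, which ends at a ceiling of 3.54. Signals of pooled and single lists differ in scale. The dm3 lists were not used.

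Gene models were those of Ensembl (release 115, BDGP6.54). Sequence was taken from the RefSeq Release 6 assembly, where 99.9% of 16213 annotated start codons read ATG. Summits were assigned within 5000 bp of a gene span and matched between lists within 200 bp (Python 3.11.15). Motifs were searched on both strands. The functions were tested on simulated regions. No test was run: values are descriptions, with the share over all genes or regions as background. The members and gene lists were chosen with earlier results of these data known. Genes named were the members, those nearest their regions, up to 3 non-member genes per list with the highest signal, and the 3 most like each member; grn, peb, CtBP and HDAC1 and the best candidates of each member were named after their values were seen. Alternatives varied the distance, the matching, the threshold, the sequence window and the replicate.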

Additional observations from a re-analysis of the deposited data

How the results depend on the processing

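That 2 of the 5 genes held a thresholded region was the same under all 6 alternatives: distances of 0, 1000 and 10000 bp, the 1000 strongest regions, and the list of either replicate alone. Much of this was fixed in advance. The region by which ush and cbt were chosen had pooled rank 2, and rank 1 and rank 2 in the replicates. With 10000 bp, the 1000 strongest regions or either replicate alone, these genes could not drop out. At 0 and 1000 bp cbt could drop out but ush could not, since the summit of that region lies inside the ush span. The genes pnr, srp and Chi could not gain a region at 0 or 1000 bp or among the 1000 strongest regions. The number of distinct thresholded regions ran from 7 to 10, and from 8 to 9 in the single replicates. The background share depended on the distance and threshold: 6.53% of genes with the span alone, 16.1% with 1000 bp, 39.6% with 10000 bp, and 16.8% with the 1000 strongest regions, against 28.4%; it was 28.0% and 28.1% in the single replicates. Of the 67 distinct pooled regions at the genes (71 and 64 in the single replicates), 14 had a −log10 q of 2 or more, and 31 were found in both replicates within 200 bp (27 within 100 bp, 39 within 500 bp, 37 by overlap). Thresholded regions with an E-box numbered 3 within 50 bp of the summit, but 1 within 25 bp, 5 within 100 bp and 9 in whole regions; those with GATAA numbered 1, but 0, 3 and 5. These windows differ in length, and a longer one holds more matches. No paired analysis was possible because there was 1 group. Depth is unknown, so a candidate missing from a replicate is not shown to be absent there.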
